A study of Rattus norvegicus with 9 samples.

Results

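Enzymes that make, activate and inactivate androgens and related steroids were examined in rat prostates. The set held 10 genes chosen by name (Srd5a1, Srd5a2, Srd5a3, Hsd17b2, Hsd17b3, Hsd17b10, Hsd17b11, Hsd11b1, Hsd11b2 and Sts), out of 15163 genes with a symbol on the array. All 10 were found through the RefSeq accessions of their probes, with 11 probes in total, of which 2 were for Srd5a1 and 1 for each of the others. Gene expression had been measured with Agilent one-color rat arrays, with 3 arrays per group and 1 rat prostate per array. All rats were male Sprague Dawley rats, 6 weeks old at purchase. Sham rats underwent a sham operation and received corn oil and oral vehicle. BPH rats, a model of benign prostatic hyperplasia (BPH), were castrated and received dihydrotestosterone (3 mg/kg) by daily subcutaneous injection for 4 weeks, with oral vehicle. BPH+ghrelin rats were castrated, received the same androgen, and were given rat ghrelin (20 nmol/kg daily, by gavage) in the last 2 weeks. The groups of the study had 8 rats each, and the sources used here do not give which 3 of them were hybridized. Both BPH groups lacked testes, so castration and the injected androgen cannot be told apart in a comparison with sham.

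Steroid 5α-reductases convert testosterone to dihydrotestosterone, the stronger ligand of the androgen receptor and the main androgen of the prostate. The 17β-hydroxysteroid dehydrogenases switch the 17-keto and the 17-hydroxyl form of a steroid, by which weak and active androgens are exchanged. The 11β-hydroxysteroid dehydrogenases do the same at another position of the glucocorticoids, where Hsd11b1 activates and Hsd11b2 inactivates. Steroid sulfatase (Sts) frees steroids from their sulfate esters, a circulating reserve form. Dihydrotestosterone, the hormone injected here by the study's methods, is the product of the 5α-reductase step. The study's title and a figure legend instead name testosterone, the substrate of that step. The legend also gives another dose and route for ghrelin. The methods were followed here.

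The upstream sequences of the genes around which the results turn are shown for reading beside the values, namely the 5α-reductase family and Hsd17b11. They are the 250 bases before the annotated start site on the gene's own strand, from the RefSeq promoter table of assembly GRCr8. Of the 10 genes, 7 had an entry, and Hsd17b2, Hsd11b1 and Hsd11b2 had none. Capitals mark matches to 4 motifs searched on both strands, which were the androgen response element half-site (AGAACA or TGTTCT), the TATA box (TATAAA or TTTATA), the GC box (GGGCGG or CCGCCC) and the CCAAT box (CCAAT or ATTGG). A match is only a match of letters.
Srd5a1, chr1:35514664-35514913, plus strand: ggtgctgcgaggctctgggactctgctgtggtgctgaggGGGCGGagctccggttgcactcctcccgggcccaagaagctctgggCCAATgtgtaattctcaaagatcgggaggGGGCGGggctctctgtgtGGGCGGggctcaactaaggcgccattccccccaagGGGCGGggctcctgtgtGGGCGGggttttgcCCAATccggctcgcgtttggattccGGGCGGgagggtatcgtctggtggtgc
Srd5a2, chr6:27177839-27178088, plus strand: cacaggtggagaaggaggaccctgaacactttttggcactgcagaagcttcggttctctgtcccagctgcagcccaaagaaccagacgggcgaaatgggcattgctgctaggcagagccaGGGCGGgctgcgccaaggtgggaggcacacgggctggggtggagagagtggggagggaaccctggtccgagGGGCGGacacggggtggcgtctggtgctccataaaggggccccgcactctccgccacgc
Srd5a3 (outer of 2 start sites), chr14:32414974-32415223, minus strand: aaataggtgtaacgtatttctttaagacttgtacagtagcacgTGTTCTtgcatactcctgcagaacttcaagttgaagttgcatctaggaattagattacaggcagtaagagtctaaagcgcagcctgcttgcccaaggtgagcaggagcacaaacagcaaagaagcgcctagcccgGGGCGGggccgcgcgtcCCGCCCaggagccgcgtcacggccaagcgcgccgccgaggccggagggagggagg
Hsd17b11, chr14:6016440-6016689, plus strand: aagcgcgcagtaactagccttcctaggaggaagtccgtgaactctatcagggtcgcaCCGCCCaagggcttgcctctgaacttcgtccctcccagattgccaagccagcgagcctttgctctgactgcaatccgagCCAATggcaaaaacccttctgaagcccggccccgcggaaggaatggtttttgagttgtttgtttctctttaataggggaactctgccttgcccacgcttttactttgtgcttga

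The upstream sequence of Srd5a1 held 6 GC boxes and 2 CCAAT boxes, that of Srd5a2 held 2 GC boxes, and that of Hsd17b11 held 1 GC box and 1 CCAAT box. The sequence of Srd5a3 held 2 GC boxes and the androgen response element half-site, 207 bases before its start. None of the other 6 genes with an entry had these half-site letters in the window. Among 33469 promoters of the same length, 17.5% held the half-site, 12.9% the TATA box, 30.5% the GC box and 34.0% the CCAAT box. The GC content was 66.4% for Srd5a1, 65.2% for Srd5a2, 56.8% for Srd5a3 and 53.6% for Hsd17b11, and the median of all promoters was 51.2%.

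The quality of the arrays differed within the sham group. Sham replicate 2 was the dimmest array, with a 75th percentile of the signal of 197 before normalization, where the others had 359 to 653, and 61.4% of its probes were well above background, where the others had 69.5% to 75.05%. It was the lowest of the 9 arrays for Srd5a1 and Srd5a3 and the highest for Srd5a2, Hsd17b10, Hsd17b11 and Sts, so values without it are given below. Header times put the 3 BPH arrays and BPH+ghrelin replicate 1 in a first scan, BPH+ghrelin replicates 2 and 3 with sham replicates 1 and 2 in a second, and sham replicate 3 on its own. BPH and sham shared no scan, so between these groups the scan can be separated only through the BPH+ghrelin arrays.

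Markers of the tissue moved with the groups. The summed signal of 10 secretory epithelium markers was 219072 to 231136 in sham, 83157 to 121214 in BPH and 87041 to 103402 in BPH+ghrelin, and 0 of the 10 were below background on all arrays. A few very bright secreted proteins carry this sum, among them Pbsn, which was lower in BPH than in sham (log2 fold change -2.65, adjusted p = 0.00191). Among the 9 of these markers tested in BPH against sham, 5 had a higher and 4 a lower mean. The median difference was 0.11 on the log2 scale. Krt8, a luminal keratin, was higher by 0.96 (limma adjusted p = 0.00909). Krt18, another luminal keratin, differed by -0.21 (adjusted p = 0.534). The 5 basal epithelium markers summed to 8641 to 8973 in sham, 11886 to 12915 in BPH and 12630 to 14276 in BPH+ghrelin. In BPH+ghrelin against BPH, 4 of these 5 had a lower mean (0 called, median log2 fold change -0.24). Krt15 was higher by 0.44 (limma adjusted p = 0.266). The 6 seminal vesicle and coagulating gland markers summed to 90747 to 158386 in sham and 743 to 28516 in BPH. In BPH+ghrelin they summed to 576 to 3967. Epididymis markers summed to 725 to 1206, 357 to 420 and 386 to 610 in the same order, with 5 of 11 never well above background, and testis markers to 184 to 249, 161 to 165 and 162 to 180, with 4 of 9 never above it. Fat markers varied within the groups, with sums of 881, 10325 and 3996 in sham replicates 1, 2 and 3, 6850, 5191 and 3254 in BPH and 533, 4304 and 8599 in BPH+ghrelin. Smooth muscle markers summed to 17693 to 31245 in sham, 17991 to 34481 in BPH and 17197 to 18974 in BPH+ghrelin, fibroblast markers to 12956 to 23945, 19415 to 29626 and 18550 to 25768, and immune cell markers to 44126 to 59111, 39608 to 47022 and 33757 to 44971. In BPH+ghrelin against BPH, 8 of 8 smooth muscle markers (Myh11 called), 5 of 5 immune markers (Cd74 and Ptprc called), 6 of 7 fibroblast markers (Lum called), 7 of 7 fat markers (0 called) and 8 of 9 secretory epithelium markers (0 called) had a lower mean, where 48.3% of all genes had a lower mean and 1.48% were called in either direction. In BPH against sham, 5 of 5 basal (Krt14 and Krt17 called), 7 of 7 fibroblast and 7 of 7 fat markers (0 called) had a higher mean. Of all genes 46.3% had a lower mean there and 4.34% were called. In BPH+ghrelin against sham, 8 of 8 smooth muscle (Myh11 called) and 4 of 5 immune markers (Cd52, Cd74 and Ptprc called) had a lower mean. Of all genes 45.5% had a lower mean there and 6.29% were called. The part of all these markers in the differences below was not tested. In whole prostate, fewer cells of a type and less RNA per cell cannot be told apart.

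Of the 10 genes, 8 were well above background on 9 of 9 arrays. Hsd17b2, which oxidizes testosterone to the weak androstenedione, and Hsd17b3, the testicular enzyme of the opposite step, were not well above background on any array. Both were left out of the tests, and no fold is given for them.

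**Figure D1:**
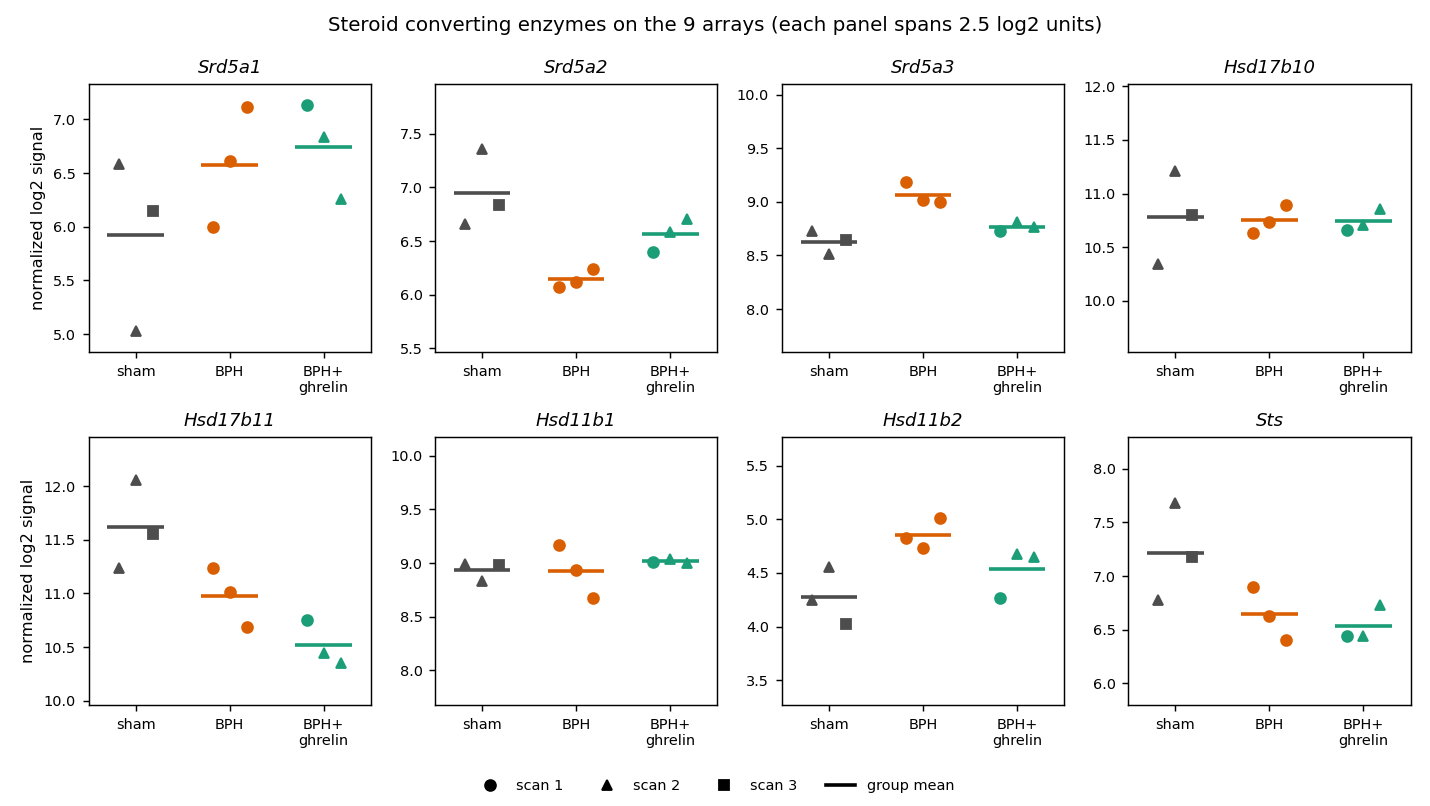
Normalized log2 signal of the 8 measured enzymes on each of the 9 arrays, by group, with horizontal lines at the group means and marker shapes for the scan an array belonged to. Each panel has its own vertical axis of equal length. The 3 BPH arrays lie below all sham arrays for Srd5a2 (6.07 to 6.24 against 6.66 to 7.36) and above them for Srd5a3 (9.00 to 9.19 against 8.51 to 8.73), while Srd5a1 overlaps in all 3 groups.

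The first comparison addressed castration with dihydrotestosterone against the intact prostate. Between BPH and sham, 0 of 8 enzymes passed an adjusted p of 0.05 (limma, Benjamini-Hochberg over 19552 genes), where 4.34% of all genes did. Here and below, the genes tested include array targets without a symbol, 8029 of the 19552 in this comparison, and of the 11523 with a symbol 4.76% passed. Without adjustment 5 of 8 had a p under 0.05, where 26.5% of all genes did, and 4 of 8 did not overlap between the groups, where 31.3% of all genes did not. None of the 8 reached a 2-fold difference, which 8.16% of all genes did. The median log2 fold change of the 8 enzymes was -0.02, and that of all genes was 0.04.

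Srd5a2, the 5α-reductase that dominates in the human prostate, had log2 signals of 6.66, 7.36 and 6.83 in sham replicates 1, 2 and 3, of 6.07, 6.11 and 6.24 in BPH, and of 6.40, 6.58 and 6.71 in BPH+ghrelin. All BPH arrays were below all sham arrays, and the BPH+ghrelin arrays lay between, with 1 of them above the lowest sham array. Means were 6.95 ± 0.36 (SD, n = 3) in sham, 6.14 ± 0.086 in BPH and 6.56 ± 0.16 in BPH+ghrelin. The log2 fold change of BPH against sham was -0.81 (SE 0.19, 95% interval -1.25 to -0.37), or 1.75-fold lower, with an adjusted p = 0.0541. This p lay close to the threshold, and 5 of 18 alternative settings put it under 0.05, among them the omission of sham replicate 1 (log2 fold change -0.96, adjusted p = 0.0243). Without the dim sham replicate 2 the log2 fold change was -0.61 and the adjusted p = 0.0502. Before scaling between arrays, the linear signals of Srd5a2 overlapped, at 110.5, 78.4 and 100.3 in sham and 103.0, 100.2 and 89.7 in BPH, so the separation appears only relative to the other genes of each array. With scan as a fixed block, the log2 fold change was -0.62 (adjusted p = 0.869). With normexp background correction it was -0.44 (adjusted p = 0.0781). That correction adds an offset of 50, which compresses differences of dim probes.

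Srd5a1, the 5α-reductase with a broad tissue distribution, had log2 signals of 6.59, 5.03 and 6.15 in sham, 6.00, 6.62 and 7.12 in BPH and 7.14, 6.83 and 6.26 in BPH+ghrelin. The groups overlapped, and the spread within each group was the widest of the 8 enzymes. Means were 5.92 ± 0.80 (SD, n = 3), 6.58 ± 0.56 and 6.74 ± 0.45. The log2 fold change of BPH against sham was 0.66 (SE 0.44, 95% interval -0.37 to 1.68, adjusted p = 0.367), and it was 0.21 (adjusted p = 0.767) without sham replicate 2. Omission of BPH replicate 3 gave 0.39, omission of sham replicate 1 gave 0.99, and scan as a fixed block gave 0.17. The second, dimmer probe of Srd5a1 gave 4.66, 0.56 and 4.04 in sham, 3.91, 4.24 and 5.07 in BPH and 4.34, 4.44 and 3.99 in BPH+ghrelin, and was well above background on 2 of 3 sham arrays. Its low value was also on sham replicate 2. Its log2 fold changes of 1.31 in BPH against sham and 1.17 in BPH+ghrelin against sham rest on that array, where it was not well above background. Against the mean of the other 2 sham arrays the differences were 0.051 and -0.098. With normexp background correction, whose added offset compresses dim probes, the first probe gave 0.29 and 0.38. Of 11 marker lists, smooth muscle and striated muscle sums ordered the arrays as Srd5a1 did in 3 of 3 groups. Those of fat and liver gave the reverse order in 3 of 3. The liver sums were nearly equal in BPH+ghrelin (52.81, 52.90 and 52.96), so their order there carries little. Of the liver markers 3 of 6, and of the striated muscle markers 1 of 6, were never well above background. Only 3 arrays per group were ordered, over 11 lists, and this was not tested.

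Srd5a3, which despite its name serves mainly in making dolichol for protein glycosylation, had log2 signals of 8.73, 8.51 and 8.64 in sham, 9.19, 9.02 and 9.00 in BPH and 8.73, 8.81 and 8.76 in BPH+ghrelin. BPH was above every array of both other groups. Means were 8.63 ± 0.11 (SD, n = 3), 9.07 ± 0.10 and 8.77 ± 0.040. The log2 fold change of BPH against sham was 0.44 (SE 0.12, 95% interval 0.18 to 0.70), or 1.36-fold, with an adjusted p = 0.0696. Omission of sham replicate 1 gave 0.49 (adjusted p = 0.0419), and omission of sham replicate 2 gave 0.38 (adjusted p = 0.0909). The difference also passed with normexp background correction (0.41, adjusted p = 0.0301) and with scan as a random block (0.43, adjusted p = 0.00782). The random block called 7084 of the 19552 genes, with an estimated correlation within scan of -0.21, so a call under it says little. With scan as a fixed block the difference was 0.50 (adjusted p = 0.798).

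Hsd17b11, a lipid droplet enzyme that oxidizes androstanediol, a breakdown product of dihydrotestosterone, had log2 signals of 11.24, 12.06 and 11.56 in sham, 11.24, 11.01 and 10.69 in BPH and 10.76, 10.45 and 10.36 in BPH+ghrelin. The highest BPH array and the lowest sham array were equal to the second decimal. Means were 11.62 ± 0.41 (SD, n = 3), 10.98 ± 0.28 and 10.52 ± 0.21. The log2 fold change of BPH against sham was -0.64 (SE 0.24, 95% interval -1.18 to -0.094, adjusted p = 0.145), and -0.42 (adjusted p = 0.260) without sham replicate 2. It was -1.02 (adjusted p = 0.780) with scan as a fixed block. With scan as a random block, which called 7084 of the 19552 genes, it passed at -0.55 (adjusted p = 0.0339). Hsd17b10, a mitochondrial enzyme with roles in isoleucine breakdown and in processing of mitochondrial transfer RNA, gave 10.34, 11.21 and 10.80 in sham, 10.63, 10.74 and 10.89 in BPH and 10.66, 10.70 and 10.86 in BPH+ghrelin. The sham arrays spanned all others, and the log2 fold change of BPH against sham was -0.032 (95% interval -0.52 to 0.45, adjusted p = 0.937), and 0.18 (adjusted p = 0.548) without sham replicate 2.

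Hsd11b2, which inactivates corticosterone, was dim, with log2 signals of 4.25, 4.56 and 4.02 in sham, 4.83, 4.73 and 5.01 in BPH and 4.27, 4.68 and 4.65 in BPH+ghrelin. The BPH arrays were above all others. The log2 fold change of BPH against sham was 0.58 (SE 0.18, 95% interval 0.17 to 0.99, adjusted p = 0.101), and 0.72 (adjusted p = 0.0559) without sham replicate 2. With scan as a random block, which called 7084 of the 19552 genes, the difference passed at 0.44 (adjusted p = 0.0410). With normexp background correction, whose offset of 50 exceeds the linear signals of this gene (11.8 to 41.4), it was 0.11 (adjusted p = 0.262). The size of the difference in this dim gene thus depends on the background correction and its offset. Hsd11b1, which regenerates corticosterone, gave 8.99, 8.83 and 8.99 in sham, 9.17, 8.94 and 8.68 in BPH and 9.01, 9.04 and 9.00 in BPH+ghrelin. Its log2 fold change of BPH against sham was -0.0092 (95% interval -0.34 to 0.32, adjusted p = 0.974), an interval that does not reach a 2-fold difference either way.

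Sts had log2 signals of 6.78, 7.68 and 7.17 in sham, 6.89, 6.63 and 6.41 in BPH and 6.44, 6.44 and 6.73 in BPH+ghrelin. BPH replicate 1 lay above sham replicate 1, so these groups overlapped, while all BPH+ghrelin arrays were below all sham arrays. Means were 7.21 ± 0.45 (SD, n = 3), 6.64 ± 0.24 and 6.54 ± 0.17. The log2 fold change of BPH against sham was -0.57 (SE 0.24, 95% interval -1.12 to -0.020, adjusted p = 0.178). It was -0.38 (adjusted p = 0.167) with normexp background correction and -0.33 (adjusted p = 0.340) without sham replicate 2. Without sham replicate 1 it was -0.78 (adjusted p = 0.0496). With scan as a random block, which called 7084 of the 19552 genes, it was -0.61 (adjusted p = 0.0242).

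**Figure D2:**
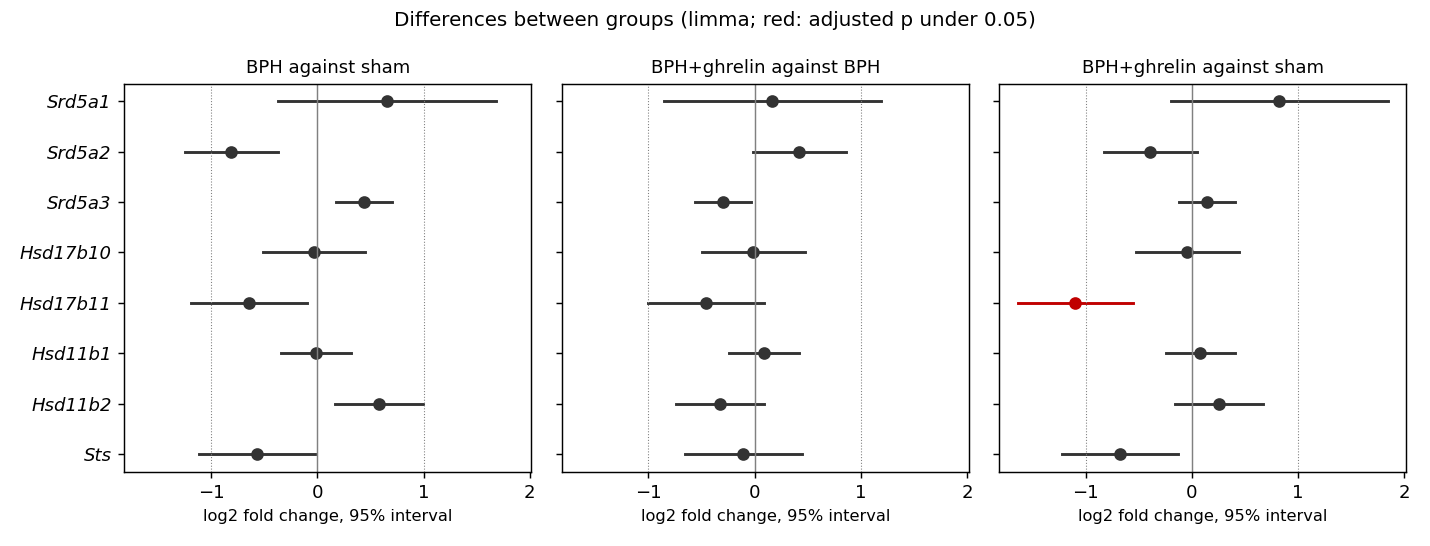
Log2 fold change of the 8 measured enzymes in the 3 comparisons, with 95% intervals from limma (horizontal lines) and dotted lines at a 2-fold difference. The 1 enzyme in red, Hsd17b11 in BPH+ghrelin against sham, had an adjusted p of 0.0360. The comparisons share arrays and are not independent of each other.

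The second comparison addressed oral ghrelin added to castration and dihydrotestosterone. Between BPH+ghrelin and BPH, 0 of 8 enzymes passed the adjusted test, where 1.48% of 19749 genes did. One enzyme, Srd5a3, had an unadjusted p under 0.05, where 21.1% of all genes did, and 3 of 8 did not overlap, where 39.2% of all genes did not. A 2-fold difference was reached by 0 of 8, where 6.11% of all genes reached it. The median log2 fold change of the enzymes was -0.058, and that of all genes was 0.015.

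Srd5a2 was 6.40 to 6.71 in BPH+ghrelin against 6.07 to 6.24 in BPH, a log2 fold change of 0.42 (SE 0.19, 95% interval -0.018 to 0.86, adjusted p = 0.251). The groups did not overlap after normalization, and within the first scan the difference was 0.25 with 1 array against 3. Before scaling the linear signals overlapped and ran the other way, with BPH+ghrelin at 77.7, 95.4 and 90.4 against 103.0, 100.2 and 89.7 for the BPH arrays. Srd5a3 differed the other way, at -0.30 (SE 0.12, 95% interval -0.56 to -0.033, adjusted p = 0.195), and at -0.34 within the first scan. Hsd11b2 differed by -0.32 (SE 0.18, 95% interval -0.74 to 0.092, adjusted p = 0.338), and by -0.59 within the first scan, where the BPH+ghrelin array was the lowest of its group, by -0.19 (adjusted p = 0.591) without that array, and by -0.061 (adjusted p = 0.577) with normexp background correction. That correction gave 0.20 (adjusted p = 0.392) for Srd5a2. For these 3 enzymes the BPH+ghrelin mean lay between the means of BPH and sham. The same BPH arrays enter both comparisons, so this position is not independent of the difference between BPH and sham.

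Hsd17b11 was 10.36 to 10.76 in BPH+ghrelin and 10.69 to 11.24 in BPH. Its log2 fold change was -0.46 (SE 0.24, 95% interval -1.004 to 0.087, adjusted p = 0.307), and -0.22 within the first scan. With scaling to the 75th percentile it was -0.28 (adjusted p = 0.534). Srd5a1 differed by 0.17 (95% interval -0.85 to 1.19, adjusted p = 0.857), an interval wide enough to hold a 2-fold rise. Within the first scan its difference was 0.56, with the 1 BPH+ghrelin array above the 3 BPH arrays. Sts differed by -0.11 (95% interval -0.65 to 0.44, adjusted p = 0.830) and Hsd11b1 by 0.089 (95% interval -0.24 to 0.42, adjusted p = 0.753). Hsd17b10 differed by -0.011 (95% interval -0.50 to 0.47, adjusted p = 0.983). Of the 8 intervals, only that of Srd5a3 left out 0.

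The third pairing set BPH+ghrelin against sham, with arrays of both earlier comparisons. Here 1 of 8 enzymes, Hsd17b11, passed the adjusted test, where 6.29% of 19197 genes did and 3.3% passed in the lower direction. Unadjusted p-values were under 0.05 for 2 of 8, where 23.7% of all genes had such values, and 4 of 8 did not overlap, where 30.4% of all genes did not. The median log2 fold change was 0.018 for the enzymes and 0.041 for all genes.

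Hsd17b11 fell by 1.10 on the log2 scale (SE 0.24, 95% interval -1.64 to -0.55), which is 2.14-fold lower, with an adjusted p = 0.0360. All 3 BPH+ghrelin arrays were below all 3 sham arrays, and the difference within the second scan, with 2 arrays against 2, was -1.25 without overlap. With scan as a fixed block this value had an adjusted p = 0.198, and the call was also lost with scaling to the 75th percentile (adjusted p = 0.0582), without a filter on dim probes (0.0577), with the 6 arrays compared only (0.0645) and with the replicate block (0.0747). It held in 9 of 18 alternative settings. In the main setting it was the only enzyme past the 2-fold criterion of the study in the 3 comparisons, and in this one 7.41% of all genes passed it. When 1 array was left out, the call was kept without sham replicate 2 (log2 fold change -0.88, adjusted p = 0.0403) and without sham replicate 1 (-1.29, adjusted p = 0.0262). It was lost without BPH+ghrelin replicate 1 (-1.22, adjusted p = 0.0681), replicate 2 (-1.06, adjusted p = 0.137) or replicate 3 (-1.02, adjusted p = 0.103), and without sham replicate 3 (-1.13, adjusted p = 0.116).

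Sts differed by -0.67 between BPH+ghrelin and sham (SE 0.24, 95% interval -1.22 to -0.13, adjusted p = 0.134), by -0.64 within the second scan, and by -0.44 (adjusted p = 0.182) without sham replicate 2. It passed the test without sham replicate 1, at -0.89 (adjusted p = 0.0479). Srd5a1 differed by 0.82 (SE 0.44, 95% interval -0.20 to 1.84, adjusted p = 0.304), by 0.74 within the second scan and by 0.38 (adjusted p = 0.538) without sham replicate 2. Srd5a2 differed by -0.39 (SE 0.19, 95% interval -0.83 to 0.045, adjusted p = 0.255), by -0.37 within the second scan and by -0.19 (adjusted p = 0.388) without sham replicate 2. Srd5a3 differed by 0.14 (SE 0.11, 95% interval -0.12 to 0.40, adjusted p = 0.506), and by 0.084 (adjusted p = 0.648) without sham replicate 2. For Hsd11b2 the difference was 0.26 (adjusted p = 0.433), with 0.050 under normexp background correction, 0.096 with scaling to the 75th percentile, 0.40 without sham replicate 2, 0.39 without BPH+ghrelin replicate 1 and 0.13 without sham replicate 3. For Hsd11b1 it was 0.079 (adjusted p = 0.783), and 0.027 without sham replicate 2. For Hsd17b10 it was -0.043 (adjusted p = 0.928), and 0.17 (adjusted p = 0.532) without sham replicate 2.

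The order of the group means thus differed between enzymes. Srd5a2 was highest in sham and lowest in BPH, Hsd17b11 and Sts were highest in sham and lowest in BPH+ghrelin, and Srd5a3 and Hsd11b2 were highest in BPH and lowest in sham. No neighbors in these orders differed beyond the adjusted threshold. The means of Hsd17b10 lay within 10.74 to 10.78 and those of Hsd11b1 within 8.93 to 9.02.

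**Figure D3:**
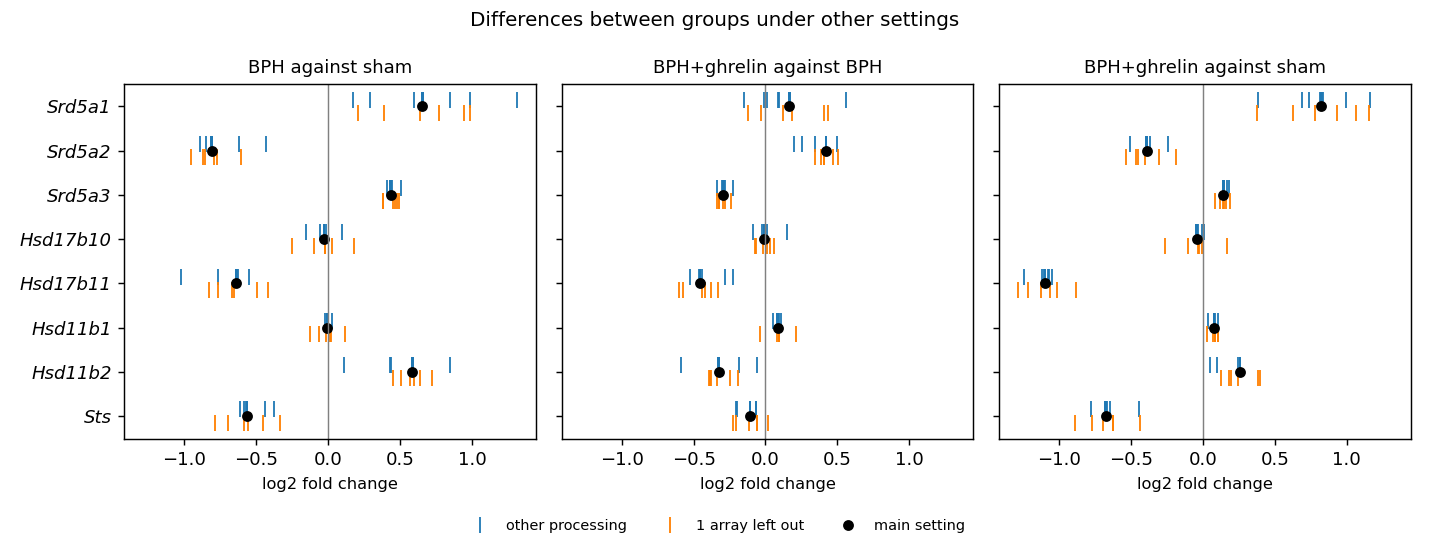
Log2 fold change of each enzyme in the main setting (black points), in other processing settings (blue ticks) and with 1 array left out at a time (orange ticks). Srd5a2 ranges from -0.96 to -0.44 and Srd5a3 from 0.38 to 0.50 in BPH against sham, and Hsd17b11 from -1.29 to -0.88 in BPH+ghrelin against sham. Hsd17b10 and Hsd11b1 lie on both sides of 0 in BPH against sham.

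Other genes of steroid conversion were counted from a list of 42, of which 39 were on the array. In BPH against sham, 25 were tested, 14 with a higher and 11 with a lower mean, and 1 passed the test, where 4.34% of all genes did. This was Cbr1, a carbonyl reductase with steroid and prostaglandin substrates, which had log2 signals of 14.21, 14.82 and 14.52 in sham and 12.66, 12.68 and 12.66 in BPH. It fell by 1.85 on the log2 scale (SE 0.26, adjusted p = 0.0110), although the call was lost without BPH replicate 2 (adjusted p = 0.0639) or without sham replicate 3 (adjusted p = 0.0547), and with scan as a fixed block (adjusted p = 0.298). Cbr1 has near-identical copies in the rat, and a probe may read more than one of them. The median log2 fold change of the list was 0.096.

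Of this list, 0 of 27 genes passed limma's adjusted test in BPH+ghrelin against BPH, 3 had an unadjusted p under 0.05, and the median was 0.098. Of all genes, 1.48% were called and 21.1% had such an unadjusted p. The largest differences without overlap were Akr1c12 (log2 fold change 0.84, adjusted p = 0.268), Cbr1 (0.59, adjusted p = 0.240) and Hsd17b7 (0.56, adjusted p = 0.154), an enzyme of cholesterol and estradiol synthesis. Over 17 alternative settings these ranged from 0.67 to 1.18, 0.35 to 1.06 and 0.47 to 0.68 in the same order, with 0 calls. Against sham, 2 of 26 passed in BPH+ghrelin, where 6.29% of all genes did, with a median of 0.12. Cbr1 fell by 1.26 on the log2 scale (SE 0.26, adjusted p = 0.0300), a call lost without BPH+ghrelin replicate 2 (adjusted p = 0.111) or 3 (adjusted p = 0.0593) or without sham replicate 3 (adjusted p = 0.109), with scaling to the 75th percentile (0.0605), with the 6 arrays compared only (0.0753) and with the replicate block (0.0683), and kept in 10 of 17 settings. Akr1c12, an aldo-keto reductase of the family that reduces progestins and androgens, was 6.52, 8.24 and 7.23 in sham and 9.31, 9.03 and 8.55 in BPH+ghrelin. It rose by 1.63 (SE 0.40, adjusted p = 0.0499), a call that held in 1 of 6 omissions, that of sham replicate 2, and was lost in the other 5 (adjusted p = 0.0604 to 0.163). Over all 17 alternative settings it was called in 7, and it was also lost without a filter (0.0773), with the 6 arrays compared only (0.107), with the mean of probes (0.0505) and with the replicate block (0.0856). With scan as a fixed block neither Cbr1 (adjusted p = 0.120) nor Akr1c12 (adjusted p = 0.341) passed in this comparison. Akr1c12 also has close relatives that its probe may read.

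The androgen receptor and 18 androgen-responsive prostate genes were listed, and 18 of these 19 were on the array. In BPH against sham, 11 of 18 had a higher and 7 a lower mean, 2 were called lower and 0 called higher at an adjusted p of 0.05, and 4.34% of all genes were called in either direction. Pbsn, which encodes probasin, a secreted prostate protein under androgen control, was 16.16, 16.41 and 16.30 in sham, 14.11, 13.72 and 13.11 in BPH and 14.46, 14.40 and 14.34 in BPH+ghrelin, with 3 groups that did not overlap. Its log2 fold change of BPH against sham was -2.65 (SE 0.23, adjusted p = 0.00191), a call that held in 16 of 17 alternative settings and was lost with scan as a fixed block (adjusted p = 0.308). Sord (sorbitol dehydrogenase) changed by -1.41 (adjusted p = 0.00732), -0.78 under normexp background correction (adjusted p = 0.00898), a call lost without BPH replicate 2 (adjusted p = 0.0505) and with scan as a fixed block (adjusted p = 0.308). The median of the list was 0.21.

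In BPH+ghrelin against BPH, 4 of 18 genes of this list had a higher and 14 a lower mean, where 48.3% of all genes had a lower one. Of the 18, 0 passed limma's adjusted test, where 1.48% of all genes did, and 5 had an unadjusted p under 0.05, where 21.1% of all genes did. The largest differences without overlap were Ndrg1 (log2 fold change -1.55, adjusted p = 0.0777), Pbsn (0.76, adjusted p = 0.132) and Tmprss2 (-0.75, adjusted p = 0.105), a membrane protease. Without BPH replicate 3, Ndrg1 (-1.97, adjusted p = 0.0274) and Tmprss2 (-0.97, adjusted p = 0.0418) passed. With scan as a random block, which called 1833 of 19749 genes, both passed (adjusted p = 0.0273 and 0.0366). Each passed in 2 of 17 settings. Over these settings Ndrg1 ranged from -1.97 to -0.94, Tmprss2 from -0.97 to -0.50 and Pbsn from 0.49 to 1.15. Against sham, 9 of 17 had a lower and 8 a higher mean in BPH+ghrelin, and 3 were called lower, where 3.3% of all genes were, with changes of -1.89 for Pbsn (adjusted p = 0.00459), -0.97 for Sord (adjusted p = 0.0224) and -9.70 for Msmb (adjusted p = 0.0345). Msmb, a secreted prostate protein, was 15.99 to 16.22 in sham and 3.45 to 8.41 in BPH+ghrelin, and its call held only without sham replicate 2 among 6 omissions (adjusted p = 0.0528 to 0.116 in the other 5) and was lost without a filter (adjusted p = 0.0569). The call of Sord was lost without BPH+ghrelin replicate 2 or 3 or sham replicate 3 (adjusted p = 0.0664 to 0.104) and with the replicate block (adjusted p = 0.0697), and normexp background correction gave -0.57 for it (adjusted p = 0.0248). With scan as a fixed block the calls of Pbsn (adjusted p = 0.0952), Sord (0.136) and Msmb (0.198) were lost. The medians of the list were -0.20 and -0.084 in these 2 comparisons.

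**Figure D4:**
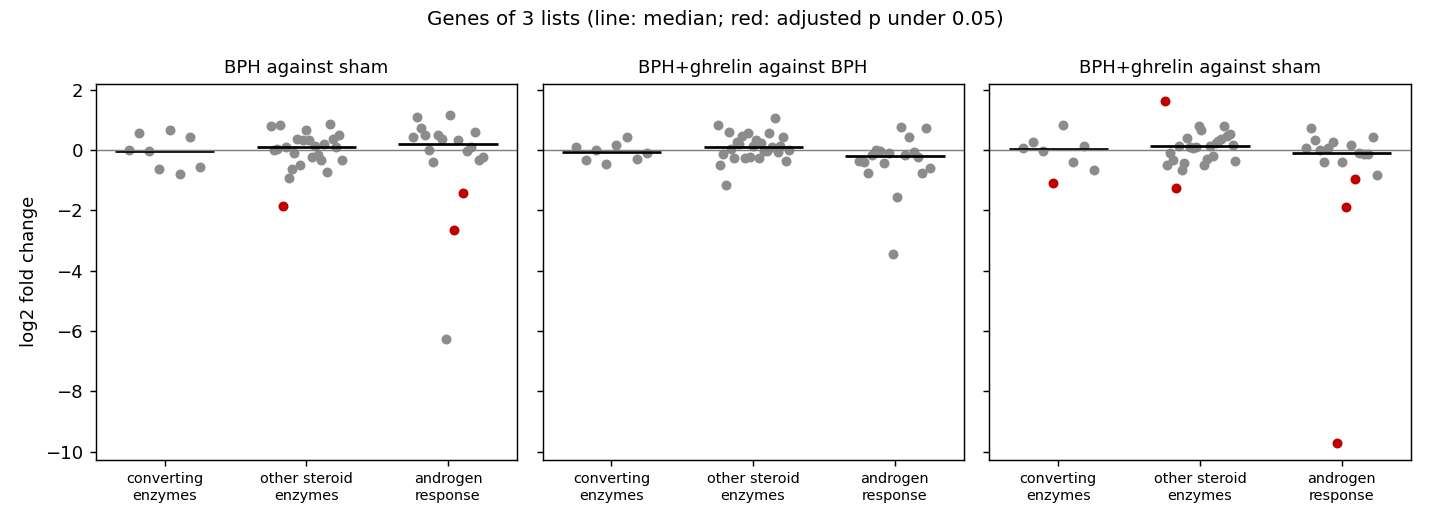
Log2 fold change of every tested gene of the converting enzymes, of the other steroid enzymes and of the androgen response list, by comparison, with a line at each list's median and genes with an adjusted p under 0.05 in red. The converting enzymes span -0.81 to 0.66 in BPH against sham, while Pbsn lies at -2.65.

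For Srd5a1, Srd5a2 and Hsd11b1, the genes with the most similar pattern over the 9 arrays were sought among 11089 genes, as a description. Srd5a1 was most like Timp4 (Pearson r = 0.995), H2az1 (0.993) and Tfdp1 (0.993). Srd5a2 was most like Unc5a (0.981), S100a4 (0.978) and Slc10a1 (0.975), and Hsd11b1 most like Sfxn3 (0.960), Cog2 (0.941) and Ifi27 (0.934). The points share groups, scans and array brightness, and 9 points among so many genes give high values readily.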

How the data were processed

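RNA of whole prostates of 9 rats (sham, BPH and BPH+ghrelin, 3 each, from the labels) was measured on one-color arrays. The authors deposited scanner output of Agilent Feature Extraction 11.0.1.1, with processed intensity values on a linear scale, background-subtracted and not normalized between arrays, and well-above-background flags. They also deposited a matrix of log2 values, quantile normalized per the methods, used as an alternative only. Control and outlier spots were left out, spots of a probe were averaged, and 30356 of 30367 probes were kept. Log2 signals were quantile normalized over 9 arrays. Probes were named by accession through the RefSeq gene table of GRCr8 (59.3% named), and a target without a symbol was tested as a gene of its own. A probe entered a comparison when well above background on at least 3 of 6 arrays, and a gene was its probe with the highest mean. Groups were compared with limma 3.58.1 (lmFit, eBayes; R 4.3.3), with Benjamini-Hochberg adjustment over all genes and a threshold of 0.05, checked on simulated data. With 3 arrays in either group, 0.1 is the smallest two-sided p that exact permutation allows. The number of arrays limits the precision. Named genes were the 10 enzymes, genes of 2 pathway lists with an adjusted p under 0.05 (or, where none, up to 3 with the largest difference without overlap) and, for 3 enzymes, the 3 genes most alike. Alternatives were scaling, background correction, filter, samples, probe choice, replicate block, scan block, variance model, deposited matrix, call rule and leaving out each array. The enzymes and lists were chosen with earlier results of these data known. One gene of the lists is not reported here and was left out of their counts.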

Additional observations from a re-analysis of the deposited data

How the results depend on the processing

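Over 18 alternative settings per enzyme and comparison, 20 of 432 values changed sign, all of them in differences that did not pass the test. The count of enzymes called in BPH against sham, 0 in the main setting, was 1 with scaling to the 75th percentile, with normexp, with the filter on all 6 arrays and with the deposited matrix, 5 with scan as a random block (estimated correlation within scan -0.21) and 5 by unadjusted p, and it ranged from 0 to 3 (without sham replicate 1) when 1 array was left out. In BPH+ghrelin against BPH the count was 0 in all settings other than 1 by unadjusted p, with a leave-one-out range of 0 to 0. In BPH+ghrelin against sham the count of 1 became 0 with scaling to the 75th percentile, without a filter, with the 6 arrays compared only and with scan as a fixed block, and 2 by unadjusted p, and ranged from 0 to 2 (without sham replicate 1) when 1 array was left out. The cause was not tested.

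The labels do not say that equal replicate numbers pair the rats. Correlations of deviations from the group means were -0.16 to 0.31 for the same number and -0.33 to 0.34 for others. Not every array was most like its own number, and 3 arrays per group cannot settle a pairing. With the replicate block, 0, 0 and 0 enzymes were called in BPH against sham, BPH+ghrelin against BPH and BPH+ghrelin against sham, the last in place of 1, and calls over all genes were 242, 20 and 462 in place of 849, 293 and 1207. With scan as a fixed block they were 2, 2 and 85, with scan as a random block 7084, 1833 and 1229, and with the 6 arrays compared only 181, 2106 and 903. Without a filter 533, 188 and 805 genes were called, and scaling to the 75th percentile called 502 in BPH+ghrelin against BPH. When 1 array was left out, 119 (BPH replicate 2) to 3069 (sham replicate 1), 3 (BPH replicate 2) to 396 (BPH replicate 3) and 226 (BPH+ghrelin replicate 2) to 1927 (sham replicate 2) were called. Scaling to the 75th percentile moved the median of all genes in BPH against sham from 0.039 to -0.087.

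Sign changes in BPH against sham were Hsd17b10 (0.094 with scan as a fixed block, -0.25 to 0.18 with 1 array left out) and Hsd11b1 (0.028 with scan as a fixed block, -0.13 to 0.12 with 1 array left out). In BPH+ghrelin against BPH they were Srd5a1 (-0.15 with its other probe, -0.0074 with scan as a random block, -0.12 to 0.44 with 1 array left out), Hsd17b10 (0.15 with scaling to the 75th percentile, 0.011 with scan as a random block, -0.071 to 0.058 with 1 array left out), Hsd11b1 (-0.037 to 0.21) and Sts (-0.22 to 0.020) with 1 array left out. In BPH+ghrelin against sham, Hsd17b10 was 0.0059 with scan as a fixed block and -0.26 to 0.17 with 1 array left out. The genes named from the pathway lists were run under the same settings after seeing the data, and 0 changed sign.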

Other observations

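The difference of Srd5a1 and Srd5a2 within an array was looked at after their values were seen, as a description without a test. It was -0.075, -2.33 and -0.69 on the log2 scale in sham replicates 1, 2 and 3, -0.078, 0.50 and 0.88 in BPH, and 0.74, 0.25 and -0.45 in BPH+ghrelin. The sham values lay at or below -0.075, and the other groups overlapped with them. The level of 1 probe cannot be set against that of the other, so only the change of this difference between arrays can be read.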
